A study of Mus musculus with 6 samples.

Results

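The 22 transfer RNAs (tRNAs) encoded by the mouse mitochondrial genome were followed across small RNA libraries of bladder cells. They were taken as every tRNA feature with an Ensembl transcript name, and they make up 22 of the 381 features in the tRNA table, beside 359 cytosolic ones. All 22 are annotated as mitochondrial tRNAs in GENCODE M21, so the rule recovered the whole mitochondrial set. All 22 passed the filter on low counts.

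The 6 libraries came from urinary bladder cells of mice aged 8 weeks. The 3 Control libraries were from naive animals given saline. The 3 CYP libraries were from animals given cyclophosphamide, an alkylating drug that reaches the urine as irritant metabolites, at 80 mg/kg into the peritoneum on days 2, 4, 6 and 8. The labels give 8 days after induction for the CYP group and no strain or sex. Nothing in them ties each library to an animal of its own, so the p-values below reflect the spread between these libraries, part or all of which may be technical.

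Mitochondria carry their own small genome, whose messages encode subunits of the respiratory chain and are read by a dedicated set of tRNAs. These tRNAs lie between the rRNA and protein genes of long transcripts from both strands, and they are released when nucleases cut at their ends. The triplet CCA is then added to the 3′ end by an enzyme, because the genome does not encode it. In small RNA sequencing, tRNAs are mostly seen as pieces, and a common kind of piece runs from the anticodon loop to the 3′ end.

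The 6 members with the most counts in the tRNA table are shown first, since they carry most of the signal there. The sequences are those of GENCODE M21 on mm10, 5′ to 3′, with the anticodon in capitals. mt-Ts2, which reads the serine AGY codons, lies at chrM:11613-11671 on the plus strand. mt-Tm, for methionine, lies at chrM:3845-3913 on the plus strand. mt-Ts1, for the serine UCN codons, lies at chrM:6870-6938 on the minus strand. mt-Th, for histidine, lies at chrM:11546-11612 on the plus strand, directly before mt-Ts2. mt-Tl1, for the leucine UUR codons, lies at chrM:2676-2750 on the plus strand. mt-Ti, for isoleucine, lies at chrM:3706-3774 on the plus strand.
mt-Ts2: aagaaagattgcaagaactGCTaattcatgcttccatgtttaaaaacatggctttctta
mt-Tm: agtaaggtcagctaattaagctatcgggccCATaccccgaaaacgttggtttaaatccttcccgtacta
mt-Ts1: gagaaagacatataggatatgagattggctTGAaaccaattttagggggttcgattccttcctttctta
mt-Th: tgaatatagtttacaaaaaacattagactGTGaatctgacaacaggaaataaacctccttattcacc
mt-Tl1: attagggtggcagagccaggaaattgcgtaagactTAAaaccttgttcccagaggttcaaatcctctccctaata
mt-Ti: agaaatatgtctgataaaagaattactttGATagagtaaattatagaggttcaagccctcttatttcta
mt-Ts2 is the shortest of the 22, at 59 bases, and is known to lack the D arm that other tRNAs have. None of the 6 gene sequences ends in CCA.

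A second set of sequences was found in the table of uncharacterized sequences that map to the mitochondrial genome. These show where the pieces of a tRNA began and ended, which the counts per tRNA do not. Capitals mark the bases that extend past the annotated gene. The most abundant mt-Th sequences all began at the second base of the anticodon.
mt-Th, 1 added base: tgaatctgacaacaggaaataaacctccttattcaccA
mt-Th, CA added: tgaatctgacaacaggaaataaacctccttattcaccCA
mt-Th, CC added: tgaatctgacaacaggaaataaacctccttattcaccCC
mt-Th, C added: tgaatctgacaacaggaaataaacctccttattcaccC
mt-Tv, start in the anticodon loop: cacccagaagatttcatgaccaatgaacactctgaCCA
mt-Tv, start past the anticodon stem: tcatgaccaatgaacactctgaCCA
mt-Ta, start in the anticodon stem: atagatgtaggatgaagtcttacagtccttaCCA
mt-Tf, start past the anticodon stem: attgtatcccataaacaCCA
The valine tRNA mt-Tv lies at chrM:1025-1093 on the plus strand, the alanine tRNA mt-Ta at chrM:5018-5086 on the minus strand, and the phenylalanine tRNA mt-Tf at chrM:1-68 on the plus strand.

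The libraries were deep in miRNAs and uneven in tRNAs. Counts are of unique molecular identifiers (UMIs), tags that let copies of 1 cDNA be counted once. They came to between 9110719 and 12180739 for miRNAs. The whole tRNA table held 2212083 UMIs in Control 1 and between 596152 and 994786 in the other 5 libraries, so Control 1 stands apart, and the shares, counts and named members that rest on the tRNA total are also given without it. Reads too short to assign averaged 9.96% ± 2.79 over the Control libraries and 14.1% ± 1.43 over the CYP libraries (SD, n = 3 each), lowest in Control 1 at 6.74%. The 6 lists of marker miRNAs, 18 miRNAs in all, were each detected, with smooth muscle miRNAs at 249641 to 281029 miRNA-scaled CPM, which are UMIs scaled to a miRNA total of 1000000 in each library. Epithelial miRNAs summed to between 38209 and 40536 CPM in Control and between 42941 and 46559 in CYP. Red cell miRNAs summed to between 94.9 and 117 CPM in Control and between 38.2 and 88.5 in CYP. Leukocyte, striated muscle and endothelial sums overlapped between the groups. The part of these differences, and of the short reads, in the results below was not tested, and fewer cells of a type cannot be told apart from less RNA per cell.

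Mitochondrial tRNAs gave fewer UMIs in every CYP library than in any Control library before scaling. The counts were 25749, 26711 and 25575 in Control 1 to 3, and 18962, 20098 and 20443 in CYP 1 to 3. The difference in group means was 1.31-fold, with p = 0.1 by an exact two-sided permutation test over libraries, the smallest that 3 against 3 allows. Reads per UMI were 1.03 to 1.04 for these tRNAs in all 6 libraries, so the read counts, from 19688 to 27489, gave the same order of groups. The whole tRNA table separated in the same way, with at least 873718 UMIs in each Control library and at most 853326 in each CYP library. Its group means differed 1.84-fold, again with exact permutation p = 0.1. Without Control 1 its Control mean was 934252, against 739672 in CYP. The lower raw count was thus not particular to the mitochondrial tRNAs.

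Relative to miRNAs the sum of the 22 was lower in CYP on average, but the groups overlapped. It was 2335, 2932 and 2100 miRNA-scaled CPM in Control 1 to 3, and 1655, 1937 and 2174 in CYP 1 to 3. CYP 3 lay above Control 3. The group values were 2455 ± 429 and 1922 ± 260 (SD, n = 3 each), a log2 difference of -0.35 with p = 0.2 by the exact two-sided permutation test.

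As a share of all tRNA UMIs the direction rested on Control 1. The share was 1.16%, 2.69% and 2.93% in Control 1 to 3, and 2.46%, 2.36% and 3.43% in CYP 1 to 3. The group means were 2.26% ± 0.956 and 2.75% ± 0.591 (SD, n = 3 each), with exact two-sided permutation p = 0.6. The mean difference was 0.49 percentage points with all libraries and -0.057 without Control 1. As counting error alone, the 95% exact (Clopper-Pearson) interval for Control 1 was 1.15% to 1.18%, far below the share in the other libraries. Cytosolic glycine tRNAs took 32.7% to 40.2% of tRNA UMIs, and their level in Control 1, 80696 miRNA-scaled CPM, lay above the 20747 to 42834 of the other 5 libraries.

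**Figure D1:**
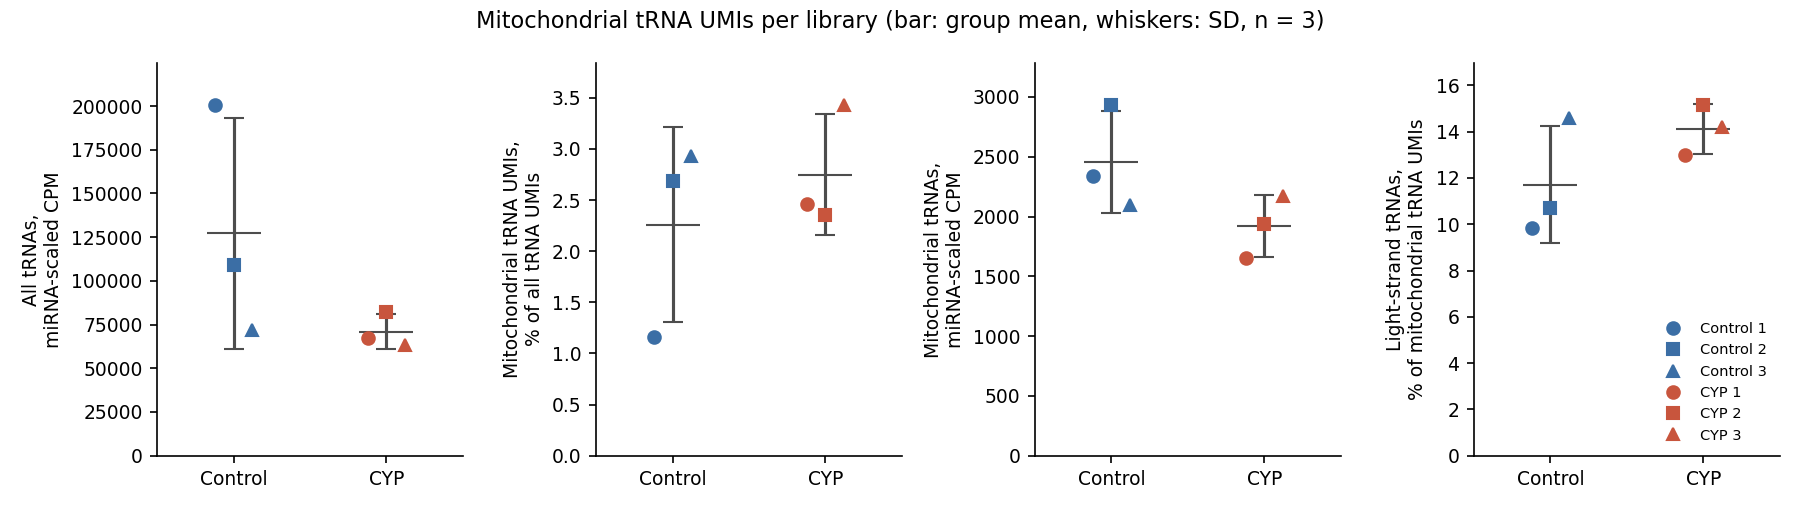
Each point is 1 library, and the bar and whiskers give the group mean and SD (n = 3). The panels show, from left to right, all tRNAs in miRNA-scaled CPM, mitochondrial tRNA UMIs as a percentage of all tRNA UMIs, mitochondrial tRNAs in miRNA-scaled CPM, and light-strand tRNAs as a percentage of mitochondrial tRNA UMIs. Control 1 is highest for all tRNAs and lowest, at 1.16%, for the mitochondrial share.

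One tRNA dominated the set. mt-Ts2 took 54.8% to 66.2% of the UMIs of the 22, and between 58.7% and 69.7% when counts were divided by gene length. On the same length-adjusted share, mt-Tm followed at 7.49% to 11.1%, and neither range overlapped a lower-ranked one. mt-Ts1 (2.85% to 5.65%), mt-Th (3.61% to 6.38%) and mt-Tl1 (2.86% to 4.57%) came next and overlapped each other across libraries. mt-Ti, the sixth, had a length-adjusted share of 1.34% to 2.04%. The lowest mean belonged to mt-Tf, at 0.171% to 0.299%. These ranks rest on the tRNA table alone. Sequences listed apart from it, described below, held 780 UMIs for mt-Tf, against 340 in the tRNA table. They held 4463 for mt-Tv against 1960, and 2854 for mt-Ta against 2488, but only 552 for mt-Ts2 against 83262. mt-Ti had 2530 UMIs in the tRNA table, so the lower ranks may differ with those sequences included.

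The level of mt-Ts2, which sets most of the sum, was 1463, 1941 and 1150 miRNA-scaled CPM in Control 1 to 3. In CYP 1 to 3 it was 1036, 1122 and 1268. The Control libraries were spread more widely than the CYP libraries, and Control 3 lay below CYP 3. The edgeR log2 fold change was -0.75 ± 0.42 (SE) scaled by the tRNA table, with adjusted p = 0.312, and -0.70 ± 0.36 without Control 1. Scaled by the miRNA table it was -0.53 ± 0.38, with adjusted p = 0.315.

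**Figure D2:**
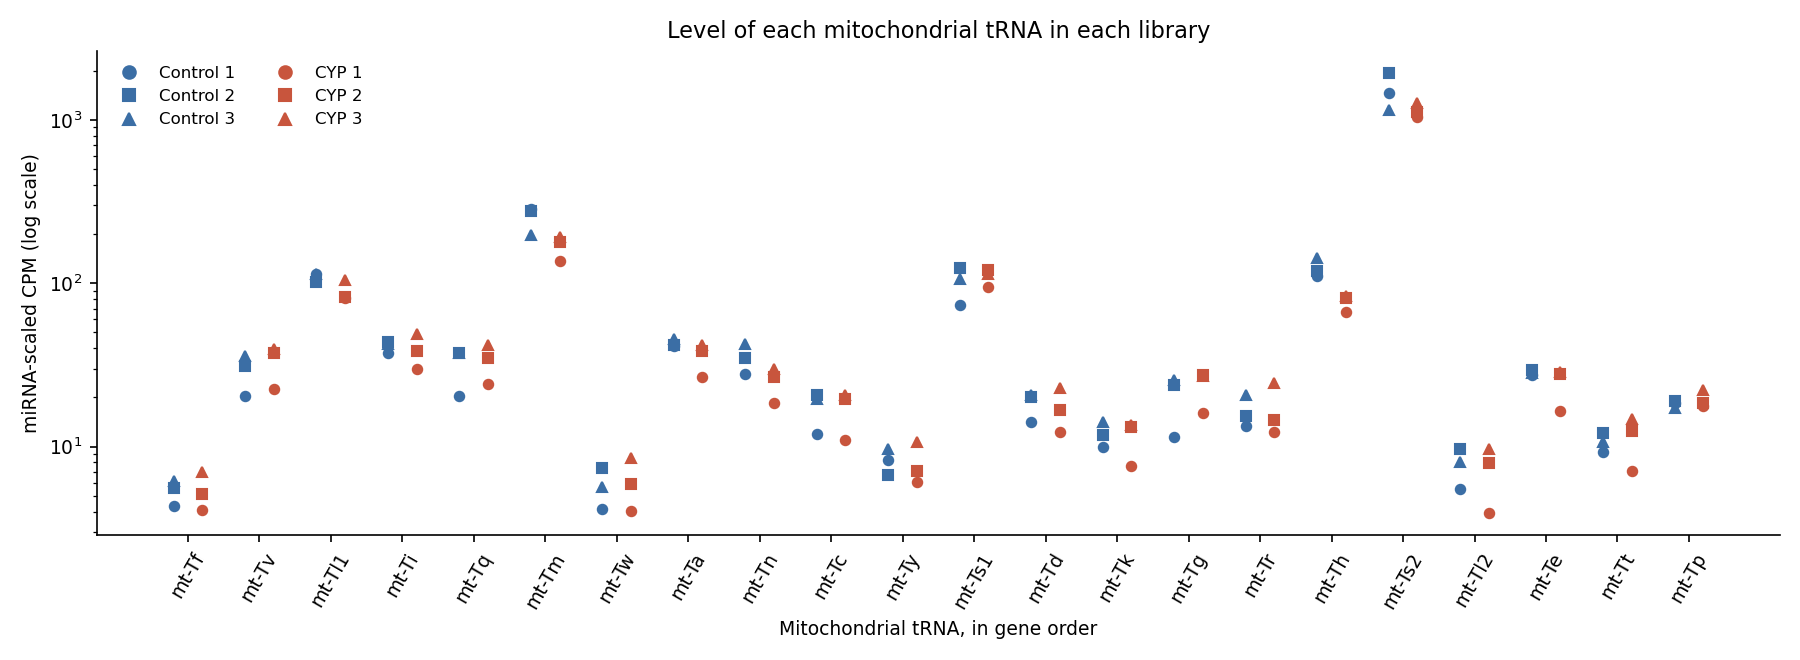
Level of each of the 22 mitochondrial tRNAs, in gene order, as miRNA-scaled CPM on a log axis, with 1 point per library. mt-Ts2 stands highest in all 6 libraries, and the 3 CYP points of mt-Th, at 67.0 to 83.7, lie below its 3 Control points, at 111 to 142.

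Every tRNA feature was then tested with edgeR's quasi-likelihood test on UMI counts, with p-values adjusted over the 369 features that passed the filter. The test was run with library totals and trimmed-mean (TMM) factors of the tRNA table, which asks how a tRNA moved against other tRNAs. It was run again with those of the miRNA table, which asks how it moved against miRNAs. No feature had an adjusted p below 0.05 in either fit, 0% of the 369 and 0 of the 22 mitochondrial tRNAs. The smallest adjusted p among the 22 was 0.115 in the first and 0.194 in the second.

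The fold changes of the mitochondrial tRNAs nevertheless lay mostly on one side. Scaled by the tRNA table with TMM factors, 22 of 22 were below 0, with a median log2 fold change of -0.42 and a range of -1.02 to -0.12. With tRNA library totals alone 21 of the 22 were instead above 0, the TMM factor of Control 1 being 0.346 against 0.806 to 1.80 in the other libraries. Scaled by the miRNA table, 19 of 22 were below 0, with a median of -0.18 and a range of -0.79 to 0.11, and with miRNA totals alone 13 of 22 were. Without Control 1 the medians were -0.45 and -0.26, with 22 and 21 of 22 below 0. Without CYP 1 the fit scaled by the miRNA table had 10 of 22 below 0 and a median of 0.019.

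The scaling moved all tRNA features together. The median log2 fold change over all 369 was 0.12 scaled by the tRNA table, 0.35 scaled by the miRNA table and 1.00 with tRNA totals alone. Relative to that median, the median of the mitochondrial tRNAs was -0.54, -0.53 and -0.50 in the same order. Among all 369 features, 42.0% were below 0 in the first fit and 32.8% in the second. A scaling shifts every feature of a library alike, so these 3 differences are nearly equal by construction, while the direction against 0 depended on the scaling. Heavy-strand tRNAs, 14 of the 22, had a median of -0.42 in the first fit and the 8 light-strand tRNAs -0.40.

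At an unadjusted p below 0.05 in the fit scaled by the tRNA table, 8 of 22 mitochondrial tRNAs were lower in CYP, against 16% of all features. These were mt-Th, mt-Tm, mt-Tn, mt-Tl1, mt-Ta, mt-Te, mt-Ti and mt-Td. None of the 22 was higher, against 5.69% of all features. Without Control 1, 13 of 22 were lower at this level, against 17.3% of all. Scaled by the miRNA table, 3 of 22 were lower (mt-Th, mt-Tm and mt-Tn), against 9.49% of all, and none was higher, against 13.3%.

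A count of non-overlapping groups gave a like picture. On values scaled by the tRNA table, 11 of 22 were lower in all 3 CYP libraries than in any Control library, against 18.2% of all features, and none was higher, against 14.6%. Without Control 1, and with the same factors, 17 of 22 were lower, against 21.7%. Scaled by the miRNA table, 6 of 22 were lower (mt-Th, mt-Tm, mt-Tn, mt-Tl1, mt-Ta and mt-Te), against 8.4%, and none was higher, against 24.1%. Scaled by miRNA totals without TMM factors, the count was 2 of 22 (mt-Th and mt-Tm), against 6.78%.

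DESeq2, run as an alternative on the same counts, made calls where edgeR made none. Scaled by the tRNA table, 9 of the 18 mitochondrial tRNAs that received an adjusted p had one below 0.05, all lower in CYP, against 25.2% of all features with a value. None was called higher, against 5.04% of all. Scaled by the miRNA table, mt-Th alone was called among 9 with an adjusted p, against 19% of all called lower, and none of the 9 was called higher, against 3.92%.

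The edgeR result also depended on single Control libraries. Without Control 1, edgeR called 8 of the 22 lower in the fit scaled by the tRNA table, against 9.84% of all features. In the fit scaled by the miRNA table it then called 2 of the 22 lower, mt-Th and mt-Tn, against 3.46% of all. Without Control 3 it called 5 of the 22 lower scaled by the tRNA table, against 15% of all, and 0 scaled by the miRNA table. Leaving out any other library gave 0 calls among the 22 in both fits.

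**Figure D3:**
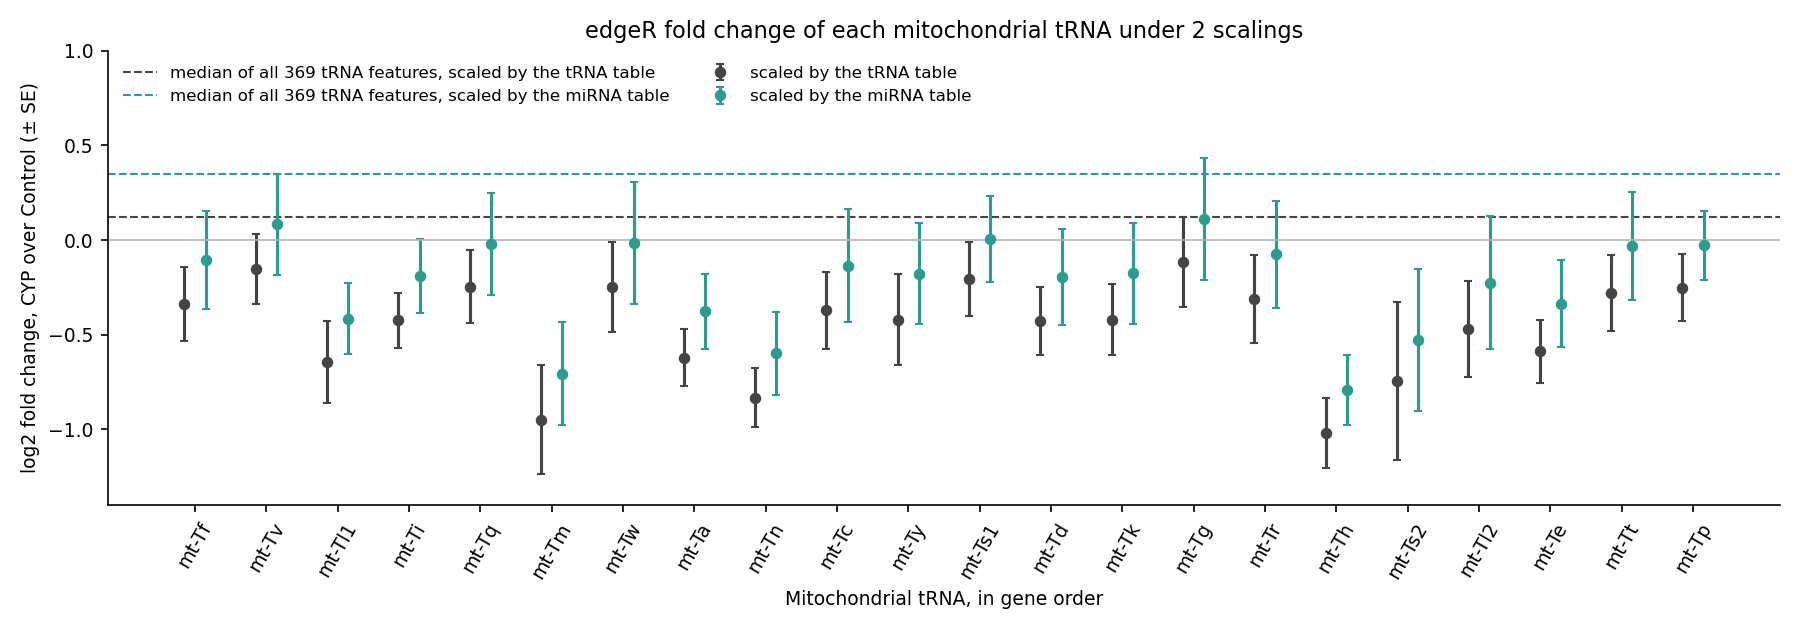
edgeR log2 fold change of CYP over Control for each mitochondrial tRNA, in gene order, with SE bars, scaled by the tRNA table (dark) or the miRNA table (green). Dashed lines give the median of all 369 tested tRNA features, 0.12 and 0.35, and mt-Th has the lowest value in both fits, at -1.02 and -0.79.

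The histidine tRNA mt-Th showed the clearest separation of groups. It stood at 111, 118 and 142 miRNA-scaled CPM in Control 1 to 3 and at 67.0, 80.9 and 83.7 in CYP 1 to 3. The highest CYP library was below the lowest Control library, and the group means differed 1.60-fold (124 ± 15.9 against 77.2 ± 8.91, SD, n = 3 each). The log2 fold change was -1.02 ± 0.19 (SE) scaled by the tRNA table, with edgeR adjusted p = 0.115. Scaled by the miRNA table it was -0.79 ± 0.19, with edgeR adjusted p = 0.194. DESeq2 gave adjusted p = 6.14e-11 and 0.0100 for these 2 scalings, and edgeR without Control 1 gave 2.24e-05 and 0.00163. Without Control 3 edgeR gave 0.0264 and 0.0646. The 2 tools thus fell on opposite sides of the threshold with all libraries.

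The methionine tRNA mt-Tm, which serves both start and internal codons in mitochondria, had the next lowest fold change. Its level was 286, 276 and 198 miRNA-scaled CPM in Control and 137, 179 and 192 in CYP. The groups did not overlap, although Control 3 and CYP 3 lay close together. Its log2 fold change was -0.95 ± 0.29 scaled by the tRNA table and -0.71 ± 0.27 scaled by the miRNA table, with edgeR adjusted p = 0.185 and 0.194. DESeq2 gave adjusted p = 0.00362 and 0.0645 for these scalings. Scaled by the tRNA table, edgeR gave -0.76 ± 0.21 without Control 1 (adjusted p = 0.0118) and -1.19 ± 0.25 without Control 3 (adjusted p = 0.0292).

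The asparagine tRNA mt-Tn is named here after its values were seen, because it shared the smallest adjusted p with mt-Th. It was at 27.9, 34.7 and 42.5 miRNA-scaled CPM in Control and 18.6, 26.5 and 29.8 in CYP. On this scale, which uses totals without TMM factors, CYP 3 lay above Control 1. The log2 fold change was -0.83 ± 0.16 scaled by the tRNA table, with edgeR adjusted p = 0.115, and -0.60 ± 0.22 scaled by the miRNA table, with adjusted p = 0.194. DESeq2 scaled by the tRNA table gave adjusted p = 2.99e-07, and scaled by the miRNA table it gave none for this tRNA. Scaled by the tRNA table, edgeR gave adjusted p = 3.32e-05 without Control 1 and 0.0292 without Control 3.

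For mt-Tl1 and mt-Ti the groups overlapped in miRNA-scaled CPM. mt-Tl1 was at 114, 101 and 114 in Control and 80.8, 82.2 and 105 miRNA-scaled CPM in CYP, with a log2 fold change of -0.42 ± 0.19 in the fit scaled by the miRNA table. Scaled by the tRNA table it was called by DESeq2 (adjusted p = 0.00515) and by edgeR without Control 1 (adjusted p = 0.0300), but not by edgeR with all libraries (adjusted p = 0.185). mt-Ti was at 37.2, 43.7 and 42.6 in Control and 30.0, 38.7 and 48.6 in CYP, with -0.19 ± 0.19. Scaled by the tRNA table, mt-Ti had edgeR adjusted p = 0.185, or 0.0648 without Control 1, and DESeq2 adjusted p = 0.00515. CYP 3 was the highest CYP library for both. mt-Ti and the glutamine tRNA mt-Tq lie on opposite strands and overlap by 3 bases, and mt-Ts2 and the second leucine tRNA mt-Tl2 overlap by 1 base on the same strand. The sources used here do not state how reads in those bases were assigned.

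The serine UCN tRNA mt-Ts1, the most abundant light-strand member, did not share the lower level. It was at 73.4, 124 and 106 miRNA-scaled CPM in Control and 94.4, 120 and 113 in CYP. The groups overlapped fully, and the log2 fold change was 0.0054 ± 0.23 scaled by the miRNA table, with edgeR adjusted p = 0.992, and -0.21 ± 0.19 scaled by the tRNA table, or -0.34 ± 0.17 without Control 1.

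Within the mitochondrial set, which needs no outside scaling, the groups overlapped in the share of most tRNAs. mt-Ts1 took 3.15%, 4.25% and 5.06% of the UMIs of the 22 in Control and 5.70%, 6.20% and 5.21% in CYP. The proline tRNA mt-Tp, also on the light strand, took 0.796%, 0.648% and 0.821% in Control and 1.07%, 0.960% and 1.02% in CYP. mt-Tm took 12.3%, 9.42% and 9.42% in Control and 8.27%, 9.24% and 8.85% in CYP. For these 3 the groups did not overlap, with mt-Ts1 and mt-Tp higher in CYP and mt-Tm lower, while for the other 19 they overlapped. mt-Ts1 and mt-Tp were picked out by that pattern, after their values were seen, so no test is given. Full separation of 3 libraries from 3 has an exact two-sided permutation p of 0.1, so some of 22 tRNAs may separate without a group effect. The shares in a library also sum to a fixed total, so they are not independent of each other.

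The 8 light-strand tRNAs together took 9.83%, 10.7% and 14.6% of mitochondrial tRNA UMIs in Control and 13.0%, 15.2% and 14.2% in CYP. Control 3 lay inside the CYP range. The mean difference was 2.41 percentage points, with p = 0.3 by the exact two-sided permutation test. Without mt-Ts2, whose counts outweigh the rest, it was 4.84 percentage points, with an exact permutation p of 0.1, the smallest possible. In miRNA-scaled CPM the light-strand sum was 283 ± 46.6 in Control and 272 ± 50.4 in CYP.

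By position along the genome, the levels in miRNA-scaled CPM differed most where mt-Ts2 and mt-Tm lie. The neighbouring mt-Th, mt-Ts2 and mt-Tl2 summed to 1650 ± 389 over the Control libraries and 1226 ± 128 over the CYP libraries (SD, n = 3 each). The cluster mt-Ti, mt-Tq and mt-Tm summed to 326 ± 42.7 and 242 ± 46.7. Genes within these groups did not all move alike. The CYP mean over the Control mean was 0.951 for mt-Ti and 1.06 for mt-Tq, beside 0.669 for mt-Tm. For mt-Tl2 it was 0.926, beside 0.752 for mt-Ts2 and 0.623 for mt-Th. The cluster of mt-Tw, mt-Ta, mt-Tn, mt-Tc and mt-Ty, for tryptophan, alanine, asparagine, cysteine and tyrosine, summed to 109 ± 14.6 and 91.9 ± 23.3. The 3 tRNAs beside the rRNA genes, mt-Tf, mt-Tv and mt-Tl1, summed to 144 ± 9.94 and 128 ± 22.4. In each of these 4 groups of genes CYP 3 lay above at least 1 Control library. The mean was higher in CYP for the 3 tRNAs near the cytochrome oxidase genes (mt-Ts1, mt-Td and mt-Tk), at 132 ± 30.5 and 138 ± 20.6. It was also higher for mt-Tg and mt-Tr, for glycine and arginine, at 36.8 ± 11.0 and 40.5 ± 11.8. mt-Te, mt-Tt and mt-Tp, which flank cytochrome b, summed to 57.4 ± 2.98 and 55.2 ± 12.5.

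The uncharacterized table held 57 sequences that match 9 of the 22 tRNAs, with 15277 UMIs in all, equal to 11.1% of the UMIs of the 22 in the tRNA table. Each row of that table reaches at least 10 UMIs in some library, so rarer sequences are not in these sums. Of the 57, 47 sequences ended in a CCA that lies past the annotated end of the gene, with 9094 UMIs or 59.5% of the total. A further 1, of mt-Ta with 33 UMIs, ended there in CCAA. The sequences of mt-Th lower that share, since 0 of their 5750 UMIs counted toward it. For mt-Tf, mt-Ta and mt-Tc the genomic bases after the gene were not at hand, so whether their CCA is encoded was not tested. Sequences that began in the 7-base anticodon loop held 55.4% of the UMIs, 8470 in all, of which mt-Th alone gave 5750. Those that began further along, in the 3′ side of the anticodon stem, held 18.0%, and those that began past it 24.6%. The remaining 2.00% were 2 sequences of mt-Tl1 that began in the 5′ side of the stem and did not reach the 3′ end. Both matched the gene over 26 bases and then ended in AC or ACA, which the gene does not hold at that place.

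mt-Th gave the most of these UMIs, 5750 in 5 sequences, all of which start at the second base of its anticodon, tRNA base 31. The printed ends with A alone and with CA read CCA as letters because the annotated gene itself ends in cc. The end with A alone is also what the genome holds next, so that base may be encoded or added. The sum of the 5 was at 107, 104 and 134 miRNA-scaled CPM in Control 1 to 3 and at 57.5, 66.4 and 67.0 in CYP 1 to 3. The groups did not overlap, and the means, 115 ± 16.6 and 63.6 ± 5.30 (SD, n = 3 each), differed 1.81-fold. By the exact two-sided permutation test p was 0.1, the smallest possible, and 0.9 after adjustment over the 9 tRNAs compared. The same libraries and perhaps the same molecules underlie the mt-Th row of the tRNA table, so the 2 values are not independent.

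The valine tRNA mt-Tv had the most varied ends, 19 sequences all closing with CCA, which began between the first base of the anticodon and 19 bases beyond it. They held 4463 UMIs, equal to 228% of the UMIs listed for mt-Tv in the tRNA table, so most were not counted there. Those that began past the anticodon stem took 64.9% of them, and the loop 27.8%. Their sum was 71.9 ± 32.5 miRNA-scaled CPM in Control and 70.9 ± 19.4 in CYP, a difference well within the spread (exact permutation p = 1). Control 1 had the smallest share from past the stem, 43.6% against 59.5% to 73.9% in the other libraries.

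**Figure D4:**
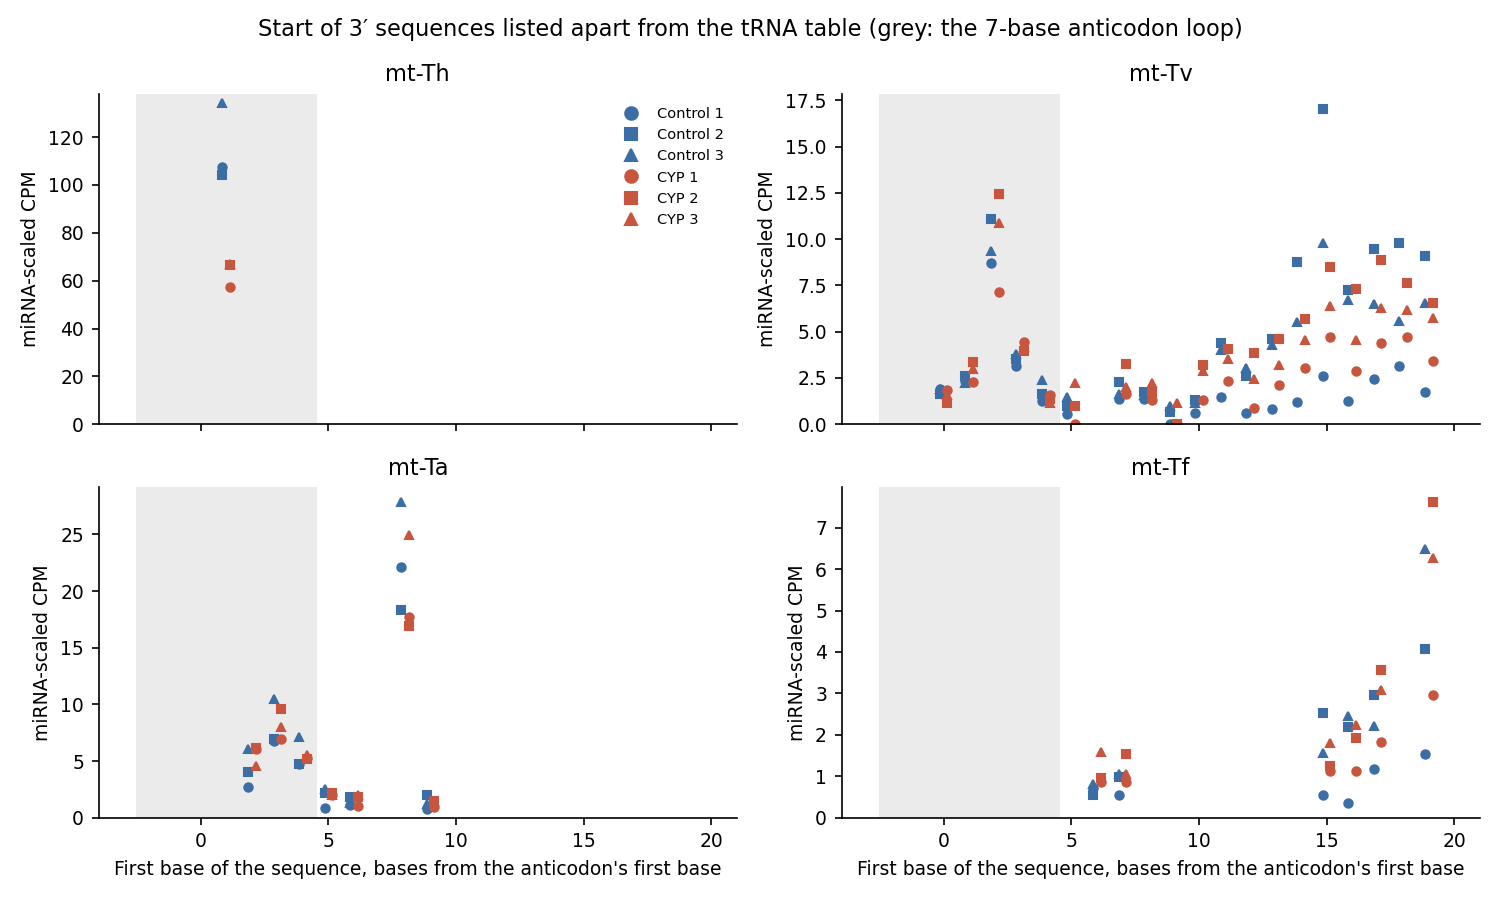
Starts of the 3′ sequences of mt-Th, mt-Tv, mt-Ta and mt-Tf, in bases from the first base of the anticodon. The vertical axis gives the summed miRNA-scaled CPM of the sequences that share a start, with 1 point per library. The grey band is the 7-base anticodon loop, and all mt-Th sequences fall at a single start inside it, with Control points at 104 to 134 and CYP points at 57.5 to 67.0.

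The other tRNAs each had their own pattern of starts. mt-Ta gave 10 sequences and 2854 UMIs, with starts 2 to 9 bases past the first base of the anticodon, and the printed sequence, which starts in the stem, held 1274 of these UMIs. mt-Tf gave 6 sequences and 780 UMIs, 84.4% of them from starts past the stem. mt-Ts2, which led the tRNA table, gave 552 UMIs in 6 sequences, equal to 0.663% of its UMIs there. mt-Tt, for threonine, gave 500 UMIs in 7 sequences, mt-Tl1 305 in 2, mt-Tm 40 in 1 and mt-Tc 33 in 1. The 3′ sequences of mt-Ta were at 45.3 ± 9.84 miRNA-scaled CPM in Control and 44.0 ± 4.29 in CYP, and those of mt-Tf at 10.9 ± 5.27 and 13.9 ± 4.43. Over these 8 tRNAs other than mt-Th the exact permutation p ran from 0.4 to 1. No matching sequence was listed for the other 13 mitochondrial tRNAs.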

How the data were processed

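The deposited tables hold whole-number counts of reads and UMIs per feature, not normalized, per the file headers. The submitters' processing notes name FastQC 0.11.7, Trim Galore, STAR 2.6, DESeq2 and the mm10 build. The counting tool, its strand setting and the treatment of near-identical nuclear copies are not stated in the sources used here. Per the labels, each library took 100 ng of total RNA and a Qiagen miRNA kit. UMI counts of all tRNA features were tested with edgeR 4.0.16 (robust quasi-likelihood, TMM, minimum count 10, minimum total 15, Benjamini-Hochberg, threshold 0.05) in R 4.3.3, checked on simulated data. The simulated libraries shared a common set of mean levels apart from the features changed, so uneven TMM factors were not examined there. The fit was repeated with totals and factors of the miRNA table. DESeq2 1.42.0, other scalings, no filter, read counts, a replicate block and leaving out each library were alternatives. Single measures were compared with SciPy 1.17.1. Uncharacterized sequences were matched to GENCODE M21 transcripts over at least 14 bases, and deposited positions were converted to count from 1. Named members are those called and the 6 most abundant in the tRNA table. Marker lists were smooth muscle, striated muscle, epithelium, leukocytes, red cells and endothelium. Members and lists were chosen with earlier results of these data known. Intervals cover counting error only.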

Additional observations from a re-analysis of the deposited data

How the results depend on the processing

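The number of mitochondrial tRNAs called, 0 in both edgeR fits, became 9 with DESeq2 scaled by the tRNA table, all lower in CYP. Of all 369 features, 238 had an adjusted p there, with 60 called lower and 12 higher. Scaled by the miRNA table the number was 1, also lower. There 153 features had an adjusted p, with 29 called lower and 6 higher. With edgeR on these scalings the number ran from 0 to 8 and from 0 to 2 when each library was left out. At the upper ends, both without Control 1, 45 of 376 and 21 of 376 features were called in either direction. With tRNA library totals alone, the log2 fold change reversed to 0.26 for mt-Ts2, 0.11 for mt-Tm, 0.64 for mt-Ts1, 0.32 for mt-Tl1 and 0.52 for mt-Ti. The value of mt-Ts1 scaled by the miRNA table, 0.0054, was -0.012 with RLE factors, -0.12 with upper-quartile factors, -0.012 with DESeq2, -0.0069 without a filter and -0.16 to 0.19 with each library left out. The share of all tRNA UMIs differed by -0.057 to 0.825 percentage points with each library left out. As a share of all small RNA UMIs, a far larger total, the means were 0.199% in Control and 0.158% in CYP. That difference of -0.042 points is 1.26-fold, with exact permutation p = 0.2. The cause of these changes was not tested. A replicate block gave 0 calls in both fits and, for the share of tRNA UMIs, the same difference of 0.491 with exact sign-flip p = 0.5. Deviations of same-numbered libraries correlated at 0.369, 0.016 and 0.466 over 369 features. Each CYP library correlated best with the Control library of its number, though for CYP 2 Control 1 was close, at 0.004. Control 2 correlated better with CYP 3, at 0.238, than with CYP 2. These values do not settle whether equal numbers pair the libraries. The number of libraries, 3 per group, limits the exact tests to p = 0.1.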
